A study of Mus musculus with 12 samples.

Results

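The killer cell lectin-like receptor (Klr) genes were represented by 30 of the 45037 non-control probe sets on the array. They were every probe set for which an annotated gene symbol began with Klr, a lower-case letter and a number. Of these, 26 named 1 gene and 4 named several. The annotation named 22 genes, and 21 of them were found in RefSeq, all on chromosome 6. Klra22 is listed there as a synonym of Klra1. Spleens of 12 female BALB/c mice were measured. The mice came from the BALB/cJ and the BALB/cByJ colony, and from each colony 3 were naïve and untreated and 3 were PG-immunized. Immunized mice had received cartilage proteoglycan (PG, 100 µg protein per the labels) with 2 mg of the adjuvant DDA by 1 intraperitoneal injection, and spleens were taken 12 days later. BALB/cJ and BALB/cByJ are closely related colonies of one inbred strain, and the study compared them because colonies differ in their susceptibility to PG-induced arthritis.

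Most Klr genes lie together in the natural killer gene complex. Klr genes encode C-type lectin-like receptors, found mainly on natural killer (NK) cells and on some T cells. Inhibitory members recognise MHC class I or related molecules on healthy cells and recruit phosphatases, whereas activating members signal through adaptors such as DAP10 and DAP12. The balance of both kinds sets the readiness of an NK cell to kill or to release cytokines. RNA came from spleen cells, and no sorting by cell type is described. Fewer receptor-bearing cells and less RNA per cell therefore cannot be told apart.

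The promoters of the genes behind the 3 probe sets that passed a test below are shown first. Each window runs from 250 bases before to 50 after the RefSeq start on build GRCm38.p6, and all are on the minus strand: Klra5 at chr6:129913175-129913474, Klra9 at chr6:130193063-130193362, Klra3 at chr6:130337577-130337876 and Klrc1 at chr6:129678924-129679223. The reference is that of C57BL/6J mice, not of BALB/c. In the Klra windows, capitals mark the 6 runs of at least 15 bases that all of Klra5, Klra9 and Klra3 hold. In Klrc1, capitals mark a RUNX-type match (TGTGGT on the other strand).
Klra5: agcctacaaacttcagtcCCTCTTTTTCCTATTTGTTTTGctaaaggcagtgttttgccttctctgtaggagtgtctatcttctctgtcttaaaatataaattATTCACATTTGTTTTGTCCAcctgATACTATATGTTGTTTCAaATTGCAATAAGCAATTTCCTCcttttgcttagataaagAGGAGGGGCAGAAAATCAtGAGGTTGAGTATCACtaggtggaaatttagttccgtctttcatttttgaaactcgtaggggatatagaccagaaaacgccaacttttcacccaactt
Klra9: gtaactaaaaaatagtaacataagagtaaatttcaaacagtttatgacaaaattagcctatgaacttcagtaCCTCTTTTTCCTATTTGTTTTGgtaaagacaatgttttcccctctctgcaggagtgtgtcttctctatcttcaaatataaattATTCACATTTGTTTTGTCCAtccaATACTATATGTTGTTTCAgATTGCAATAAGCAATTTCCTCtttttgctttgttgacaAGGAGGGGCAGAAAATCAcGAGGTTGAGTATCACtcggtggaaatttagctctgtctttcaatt
Klra3: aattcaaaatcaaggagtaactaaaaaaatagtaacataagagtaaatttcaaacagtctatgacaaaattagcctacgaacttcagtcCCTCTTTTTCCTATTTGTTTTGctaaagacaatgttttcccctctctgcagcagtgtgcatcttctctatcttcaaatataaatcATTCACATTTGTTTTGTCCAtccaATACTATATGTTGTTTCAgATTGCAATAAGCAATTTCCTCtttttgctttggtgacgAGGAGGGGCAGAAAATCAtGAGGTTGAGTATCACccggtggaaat
Klrc1: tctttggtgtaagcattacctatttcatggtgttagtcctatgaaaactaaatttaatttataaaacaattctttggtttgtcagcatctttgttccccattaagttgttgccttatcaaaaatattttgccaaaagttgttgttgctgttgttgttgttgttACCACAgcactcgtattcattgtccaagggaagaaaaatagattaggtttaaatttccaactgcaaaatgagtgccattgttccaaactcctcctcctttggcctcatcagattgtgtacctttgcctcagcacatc
The Klra9 and Klra3 windows were identical at 96.4% of aligned bases, and Klra5 was identical to them at 89% and 90%. Counting gapped bases, the identities were 85%, 61.9% and 55.5%. Klra6 was closer to Klra5 than Klra9 and Klra3 were, at 90.8% of aligned bases and 74.8% with gaps. The first of the shared runs, 22 bases long, occurred in 3 of all 32851 promoter windows. The other runs each occurred in 5 to 8 windows and in 4 to 6 Klr genes, so also outside these 3 genes. Searched on both strands, TGTGGT was found in 16.8% of all windows and in 9 of 29 Klr windows. The T-box letters GGTGTGA were found in 3.98% of all windows and 1 Klr window, and the STAT letters TTCNNNGAA in 8.3% and 4. No motif searched was found in the 3 Klra windows.

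The deposited values are on a log scale (taken as log2) and are relative to each probe set's median over the 12 arrays. They carry no signal level. Levels of different receptors could therefore not be ranked, and whether a receptor was above background could not be checked. A difference below is BALB/cByJ minus BALB/cJ, or immunized minus naïve, in log2 units with its SE. Calls used an adjusted p under 0.05 over all probe sets tested (limma, Benjamini-Hochberg).

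Some arrays stood apart in genes of other tissues. Among naïve BALB/cJ arrays, replicate 1 had a pigment cell list median of 1.79 and replicate 2 of 1.55. Among immunized arrays, BALB/cJ replicate 1 reached 0.98 while BALB/cByJ replicate 2 reached 0.63. No other array had a median above 0.04, but naïve BALB/cJ replicate 3 was also raised in single pigment genes, at 2.27 for Dct and 1.44 for 1 probe set of Tyrp1. Dct was thus raised in all 3 naïve BALB/cJ arrays, and it was at most 0.08 in naïve BALB/cByJ. The pancreatic list was at 2.26 in naïve BALB/cByJ replicate 1 and at most 0.29 elsewhere. The heat shock list was highest in immunized BALB/cJ replicates 2 and 3 and immunized BALB/cByJ replicate 3, at 0.41, 0.74 and 0.42. These arrays also had the highest sample numbers, 49, 50 and 48. Fits without these arrays are described after the related genes.

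Immunization called no Klr member, beside 0% of all probe sets in BALB/cJ, 0.0511% in BALB/cByJ and 0.0466% over both colonies. Between the colonies Klr probe sets were called, and each one called was lower in BALB/cByJ. Over both states, Klra5, the probe set of Klra9 and Klra3, and 1 of 2 Klrc1 probe sets were lower. These were 3 of 30 members, beside 4.62% of all probe sets called in that comparison. In naïve mice Klra5 alone was called, 1 of 30 members beside 4.39% of all probe sets. In immunized mice no member was called, beside 0.12% of all probe sets. A moderated F-test over the 4 groups called Klra5 and Klra9/Klra3, 2 of 30 members beside 1.77%.

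**Figure D1:**
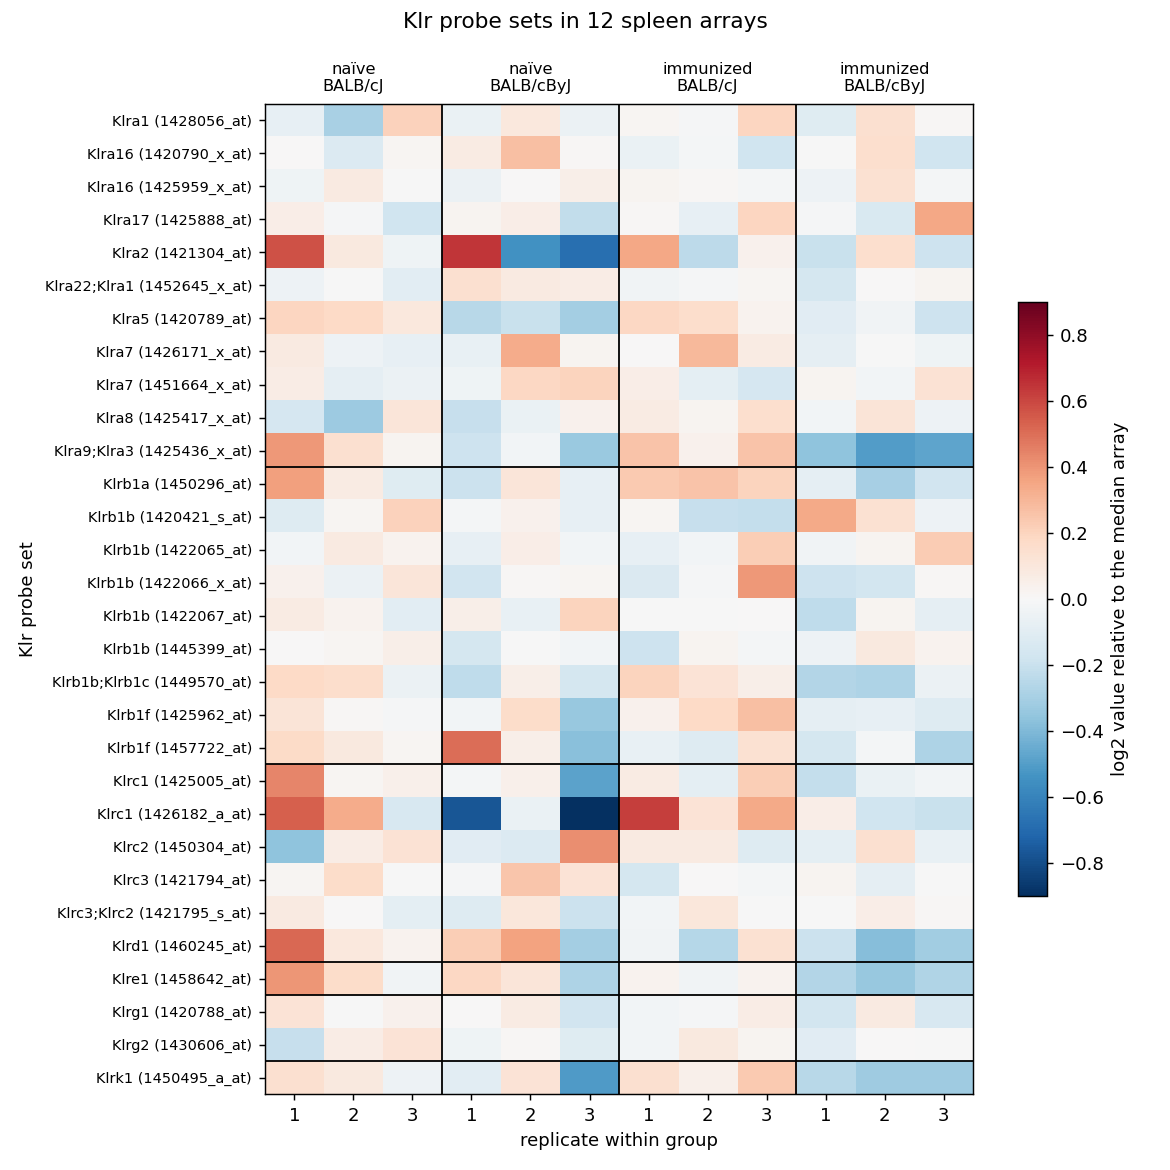
Log2 value of each of the 30 Klr probe sets (rows, ordered by subfamily) in each of the 12 arrays (columns, by group and replicate), relative to that probe set's median array. Red is above and blue below 0. Klra5 and Klra9;Klra3 are blue in all 6 BALB/cByJ arrays and red in all 6 BALB/cJ arrays.

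Klra genes encode the Ly49 receptors, most of which inhibit NK cells on binding classical MHC class I. Klra5 encodes Ly49E, a receptor known from fetal NK cells. Its values were 0.19, 0.18 and 0.10 in naïve BALB/cJ replicates 1 to 3 and -0.25, -0.20 and -0.31 in naïve BALB/cByJ. In immunized mice they were 0.19, 0.16 and 0.03 in BALB/cJ and -0.11, -0.03 and -0.18 in BALB/cByJ. Every BALB/cByJ array lay below every BALB/cJ array. The difference was -0.41 (SE 0.0747, n = 3 per group, limma adjusted p = 0.0133) in naïve mice and -0.23 (SE 0.0747, limma adjusted p = 0.495) in immunized mice. Over both states it was -0.32 (SE 0.0528, limma adjusted p = 0.00859). The naïve call was lost without naïve BALB/cByJ replicate 3 (limma adjusted p = 0.0635), naïve BALB/cJ replicate 1 (0.0669) or naïve BALB/cJ replicate 2 (0.0802), though the difference stayed between -0.38 and -0.40.

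One probe set, 1425436_x_at, matched both Klra9 and Klra3, which encode the inhibitory receptors Ly49I and Ly49C. It could not assign its signal to either. Its values were 0.39, 0.14 and 0.02 in naïve BALB/cJ, and -0.19, -0.02 and -0.34 in naïve BALB/cByJ. After immunization they were 0.26, 0.04 and 0.26 in BALB/cJ, and -0.36, -0.50 and -0.47 in BALB/cByJ. The colonies did not overlap in either state, and the 3 immunized BALB/cByJ arrays were the lowest of all 12. The difference was -0.37 (SE 0.111, limma adjusted p = 0.086) in naïve mice and -0.63 (SE 0.111, limma adjusted p = 0.0607) in immunized mice, and -0.50 (SE 0.0784, limma adjusted p = 0.00719) over both.

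The other 9 of 11 Klra probe sets were not called in any comparison. In naïve mice 5 of 11 Klra probe sets were lower in BALB/cByJ and 6 higher, with a median of 0.05. Klra17, which encodes Ly49Q and is known from plasmacytoid dendritic and myeloid cells, differed by -0.00 (SE 0.129) in naïve and 0.02 (SE 0.129) in immunized mice. Its arrays ran from -0.18 to 0.06 in naïve BALB/cJ, from -0.22 to 0.06 in naïve BALB/cByJ, from -0.07 to 0.20 in immunized BALB/cJ and from -0.14 to 0.35 in immunized BALB/cByJ, so the groups overlapped. The probe set naming Klra22 and Klra1 was the 1 member whose naïve BALB/cByJ arrays (0.15, 0.08 and 0.07) all lay above those of naïve BALB/cJ (-0.05, -0.00 and -0.10), and its difference was 0.15 (SE 0.0719, limma adjusted p = 0.298). Klra2 varied most within a group, at 0.65, -0.54 and -0.68 in naïve BALB/cByJ. The probe set annotated to Klra8 differed by 0.05 (SE 0.108) in naïve mice. Whether it detects Klra8 itself in BALB/c mice was not tested. Of the 11 Klra probe sets, 7 carry the suffix _x_at, by which the array's maker marks probes that may also bind other transcripts. The called probe set of Klra9 and Klra3 is among them.

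Klrb1 genes encode the NKR-P1 receptors, which bind Clec2 ligands. Klrb1a was at 0.23, 0.26 and 0.20 in immunized BALB/cJ and at -0.08, -0.30 and -0.18 in immunized BALB/cByJ. In naïve mice it was at 0.37, 0.08 and -0.11 in BALB/cJ and at -0.19, 0.11 and -0.08 in BALB/cByJ. The immunized arrays did not overlap, and the naïve arrays did. The difference was -0.42 (SE 0.117, limma adjusted p = 0.434) in immunized mice and -0.17 (SE 0.117, limma adjusted p = 0.499) in naïve mice, and -0.29 (SE 0.0825, limma adjusted p = 0.0661) over both.

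The probe set shared by Klrb1b and Klrb1c (the NK1.1 gene in other strains) was at 0.20, 0.12 and 0.05 in immunized BALB/cJ and at -0.26, -0.28 and -0.05 in immunized BALB/cByJ. In naïve mice it was at 0.18, 0.16 and -0.05 in BALB/cJ against -0.23, 0.05 and -0.16 in BALB/cByJ. The arrays did not overlap in immunized mice and did in naïve mice. The immunized difference was -0.32 (SE 0.1, limma adjusted p = 0.484), and -0.26 (SE 0.0707, limma adjusted p = 0.0538) over both states. The 5 probe sets of Klrb1b alone did not pass the test. Their differences in immunized mice ran from -0.20 to 0.28, and the highest, 1420421_s_at, was at 0.34, 0.13 and -0.05 in BALB/cByJ against 0.02, -0.20 and -0.21 in BALB/cJ. Its arrays overlapped, and it was the 1 member higher in BALB/cByJ at an unadjusted p under 0.05 (limma adjusted p = 0.591). One of 2 Klrb1f probe sets, 1425962_at, differed by -0.25 (SE 0.112, limma adjusted p = 0.624) in immunized mice.

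Klrc1 encodes NKG2A, the inhibitory partner of CD94 (Klrd1) in the receptor for Qa-1. Probe set 1426182_a_at was at 0.54, 0.33 and -0.14 in naïve BALB/cJ and at -0.77, -0.06 and -0.94 in naïve BALB/cByJ. After immunization it was at 0.62, 0.12 and 0.34 in BALB/cJ and at 0.06, -0.18 and -0.20 in BALB/cByJ. Naïve BALB/cJ replicate 3 lay below naïve BALB/cByJ replicate 2, and the immunized arrays did not overlap. The difference was -0.83 (SE 0.221, limma adjusted p = 0.0528) in naïve mice and -0.47 (SE 0.221, limma adjusted p = 0.637) in immunized mice, and -0.65 (SE 0.156, limma adjusted p = 0.035) over both. The other Klrc1 probe set, 1425005_at, was at 0.44, 0.02 and 0.04 in naïve BALB/cJ and at -0.02, 0.05 and -0.48 in naïve BALB/cByJ. Its arrays overlapped in both states, and it differed by -0.24 (SE 0.105, limma adjusted p = 0.227) over both states. The call on the former was lost without any 1 of 8 arrays, with limma adjusted p between 0.0537 and 0.0969.

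Klrd1 had the lowest difference of all members after immunization in BALB/cByJ. Values of 0.22, 0.36 and -0.31 were measured in naïve BALB/cByJ, and -0.19, -0.38 and -0.31 in immunized BALB/cByJ. Naïve replicate 3 lay among the immunized arrays. The difference was -0.39 (SE 0.172, limma adjusted p = 0.587), beside -0.26 (SE 0.172, limma adjusted p = 0.681) in BALB/cJ, where naïve values were 0.52, 0.09 and 0.03 and immunized values -0.03, -0.26 and 0.14. Klrc2 and Klrc3, which encode further NKG2 chains, differed between colonies by -0.07 to 0.12 in either state over their 3 probe sets.

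Klrk1 encodes NKG2D, an activating receptor for stress-induced ligands. It was at 0.15, 0.04 and 0.24 in immunized BALB/cJ and at -0.25, -0.32 and -0.32 in immunized BALB/cByJ. In naïve mice it was at 0.14, 0.08 and -0.04 in BALB/cJ and at -0.10, 0.12 and -0.51 in BALB/cByJ. The immunized arrays did not overlap and the naïve arrays did. The difference was -0.44 (SE 0.129, limma adjusted p = 0.446) in immunized mice and -0.33 (SE 0.091, limma adjusted p = 0.0591) over both states. Klre1, a receptor chain that pairs with Klri proteins, was at 0.03, -0.03 and 0.03 in immunized BALB/cJ and at -0.26, -0.34 and -0.27 in immunized BALB/cByJ. These arrays did not overlap, and the difference was -0.30 (SE 0.124, limma adjusted p = 0.592). In naïve mice its values of 0.40, 0.16 and -0.03 in BALB/cJ and 0.18, 0.11 and -0.28 in BALB/cByJ overlapped. Klrg1, an inhibitory receptor for cadherins, differed by -0.09 (SE 0.0889) in both states, within the spread of its arrays, which ran from -0.17 to 0.12 over all groups.

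**Figure D2:**
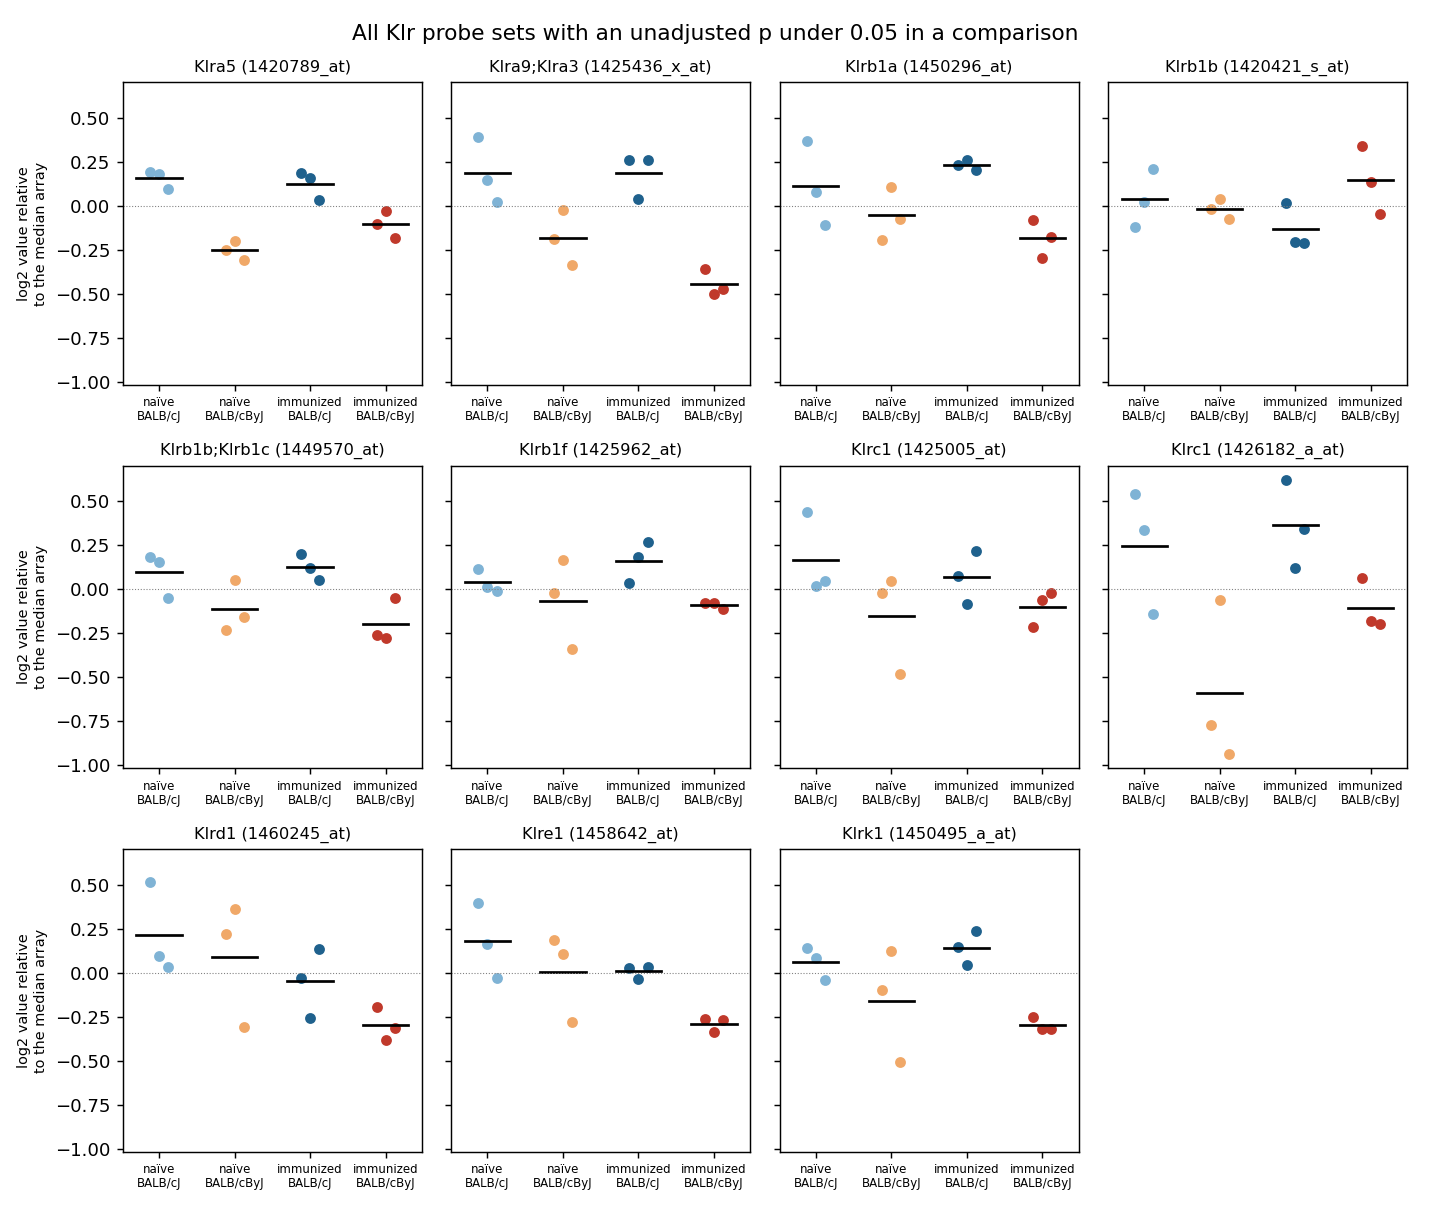
Log2 values relative to the median array of all 11 Klr probe sets with an unadjusted p under 0.05 in at least 1 pairwise or averaged comparison. Each point is 1 array (3 per group) and each bar is a group mean. Among immunized mice the BALB/cByJ mean is the lower one in every panel but that of Klrb1b 1420421_s_at.

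Across the family, 22 of 30 members were lower in BALB/cByJ in immunized mice, beside 52.2% of all probe sets, and 21 of 30 in naïve mice, beside 52.1%. At an unadjusted p under 0.05, 7 of 30 were lower in immunized mice beside 3.34%, 3 of 30 in naïve mice beside 10.5%, and 9 of 30 over both states beside 10%. One member was higher in immunized mice at that level, beside 4.58%. In immunized mice 9 of 30 members had every BALB/cByJ array below every BALB/cJ array, beside 6.88% of all probe sets, and none had the reverse, beside 8.14%. In naïve mice 3 of 30 did, beside 11.9% of all probe sets, and 1 had the reverse, beside 9.76%. The median difference of the members was -0.09 in immunized and -0.06 in naïve mice, beside -0.01 over all probe sets in each. The test of whether the colony difference changed with immunization called 0 of 30 members (limma, beside 0% of all probe sets) and had 0 members at an unadjusted p under 0.05, beside 7.59%. The naïve and immunized counts are therefore not shown to differ. The sample numbers of the immunized mice fell into an early and a late run, each with 1 array of one colony and 2 of the other. With a term for the run, the immunized difference of Klra9/Klra3 was -0.66 (limma adjusted p = 0.0996), and the counts of members called stayed at 0 in immunized mice and 3 over both states. Within the early and late runs the difference was -0.69 and -0.62 for Klra9/Klra3, and -0.08 and 0.29 for Klra17, which changed sign. These are the same arrays as in the immunized comparison, split into single-array arms, and carry no test.

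**Figure D3:**
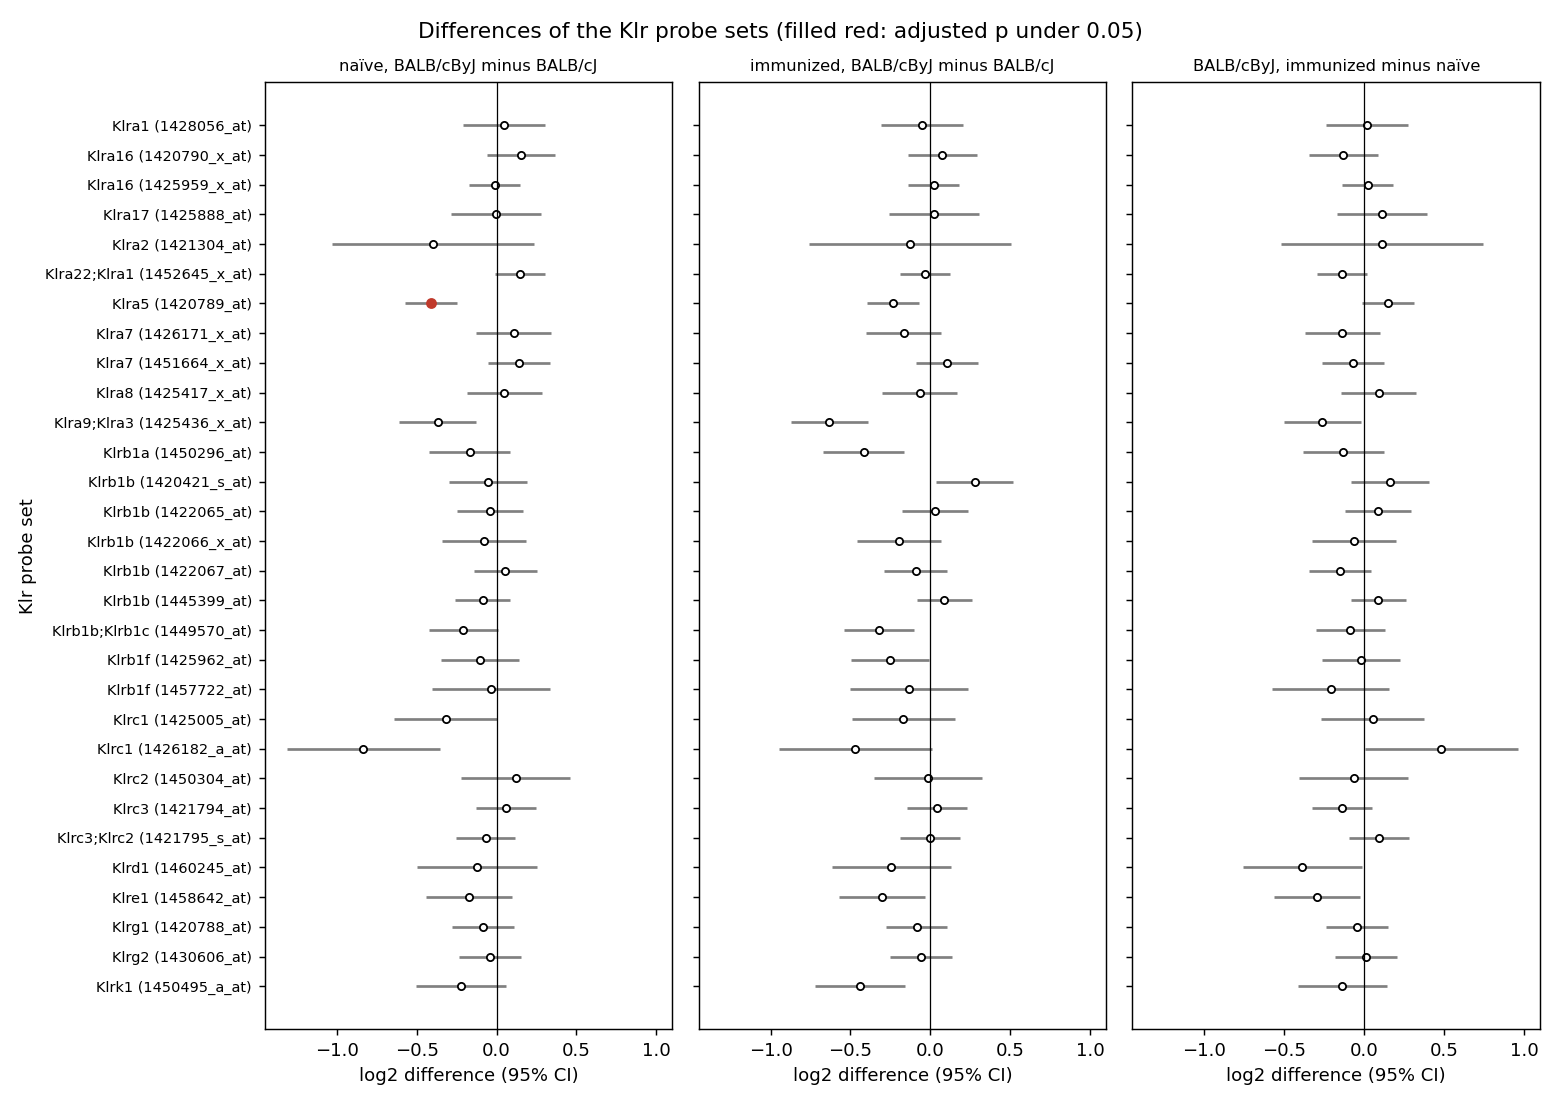
Log2 difference of each Klr probe set with its 95% confidence interval (limma), between colonies in naïve mice, between colonies in immunized mice, and after immunization in BALB/cByJ. Filled red marks an adjusted p under 0.05, which Klra5 in naïve mice alone reached.

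PG immunization called no Klr member in BALB/cJ (0 of 30, beside 0% of all probe sets), in BALB/cByJ (0 of 30, beside 0.0511%) or over both colonies (0 of 30, beside 0.0466%) by limma. At an unadjusted p under 0.05 there were 0, 4 and 2 members, beside 9.19%, 8.3% and 9.91% of all probe sets. Differences ran from -0.26 to 0.21 in BALB/cJ and from -0.39 to 0.48 in BALB/cByJ.

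Genes that work with these receptors were read from lists of ligands, adaptors, other NK receptors, effectors and transcription factors. Over both states, 1.58% of all probe sets were called lower and 3.04% higher in BALB/cByJ. Of 25 probe sets of other NK receptors, 2 were called lower and 0 higher, and 19 had a lower mean (median -0.10). Ncr1, the NK receptor NKp46, was at 0.08, -0.02 and 0.12 in immunized BALB/cJ and at -0.33, -0.64 and -0.61 in immunized BALB/cByJ. In naïve mice it was at 0.42, 0.24 and 0.02 in BALB/cJ and at -0.38, 0.25 and -0.28 in BALB/cByJ, which overlapped. It was called neither in naïve mice (limma adjusted p = 0.217) nor in immunized mice (limma adjusted p = 0.376). The difference over both states was -0.48 (SE 0.11, limma adjusted p = 0.0296), and that of Havcr2 was -0.41 (SE 0.0763, limma adjusted p = 0.0139). Of 21 probe sets of NK effectors, 3 were called lower and 0 higher, and 19 had a lower mean (median -0.14). The differences of those called were -0.46 for 1 of 2 probe sets of the pore protein gene Prf1, -0.38 for the chemokine Ccl5 and -0.56 for the protease Gzma. Of 19 T cell probe sets 0 were called between colonies by limma. In naïve mice 14 of them had lower means in BALB/cByJ (median -0.13, 3 at an unadjusted p under 0.05), beside a median of -0.13 for NK effectors. In immunized mice the T cell median was 0.09 and that of NK effectors -0.15. The T cell list level was -0.39 in immunized BALB/cJ replicate 1, and 0.02 and 0.12 in replicates 2 and 3. In immunized BALB/cByJ it was 0.05, 0.03 and 0.02, so the T cell median leaned on 1 array.

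Among 29 probe sets of Klr ligands, 2 were called lower in BALB/cByJ over both states, both of Cdh2 (N-cadherin, a Klrg1 ligand), with differences of -0.90 and -0.54. Clec2d, a ligand of NKR-P1 receptors, differed by -0.43 (SE 0.132, limma adjusted p = 0.482) in immunized mice. Of 31 probe sets of adaptors and signalling genes, 1 of 2 probe sets of the phosphatase gene Ptpn6 was called lower over both states (-0.22, the other -0.15 with limma adjusted p = 0.176), and 1 of 3 probe sets of Ptpn11 was higher in naïve BALB/cByJ (0.38). Of 26 probe sets of transcription factors, 1 of Tox (0.27) and 1 of Gata3 (0.34) were higher over both states. In immunized mice 7 of them were higher in BALB/cByJ at an unadjusted p under 0.05, beside 4.58% of all probe sets. None was lower at that level, beside 3.34%, and 0 were called by limma. The 7 included both Eomes probe sets (0.27 and 0.30) and Nfil3 (0.30). In naïve mice 4 were lower at that level, beside 10.5%, and 0 higher, beside 8.24%. Nfil3, needed for NK cell development, was lower in naïve BALB/cByJ (-0.51) and rose after immunization in BALB/cByJ by 0.84 (SE 0.112, limma adjusted p = 0.0228). None of 11 probe sets of neighbouring genes in the NK complex was called.

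**Figure D4:**
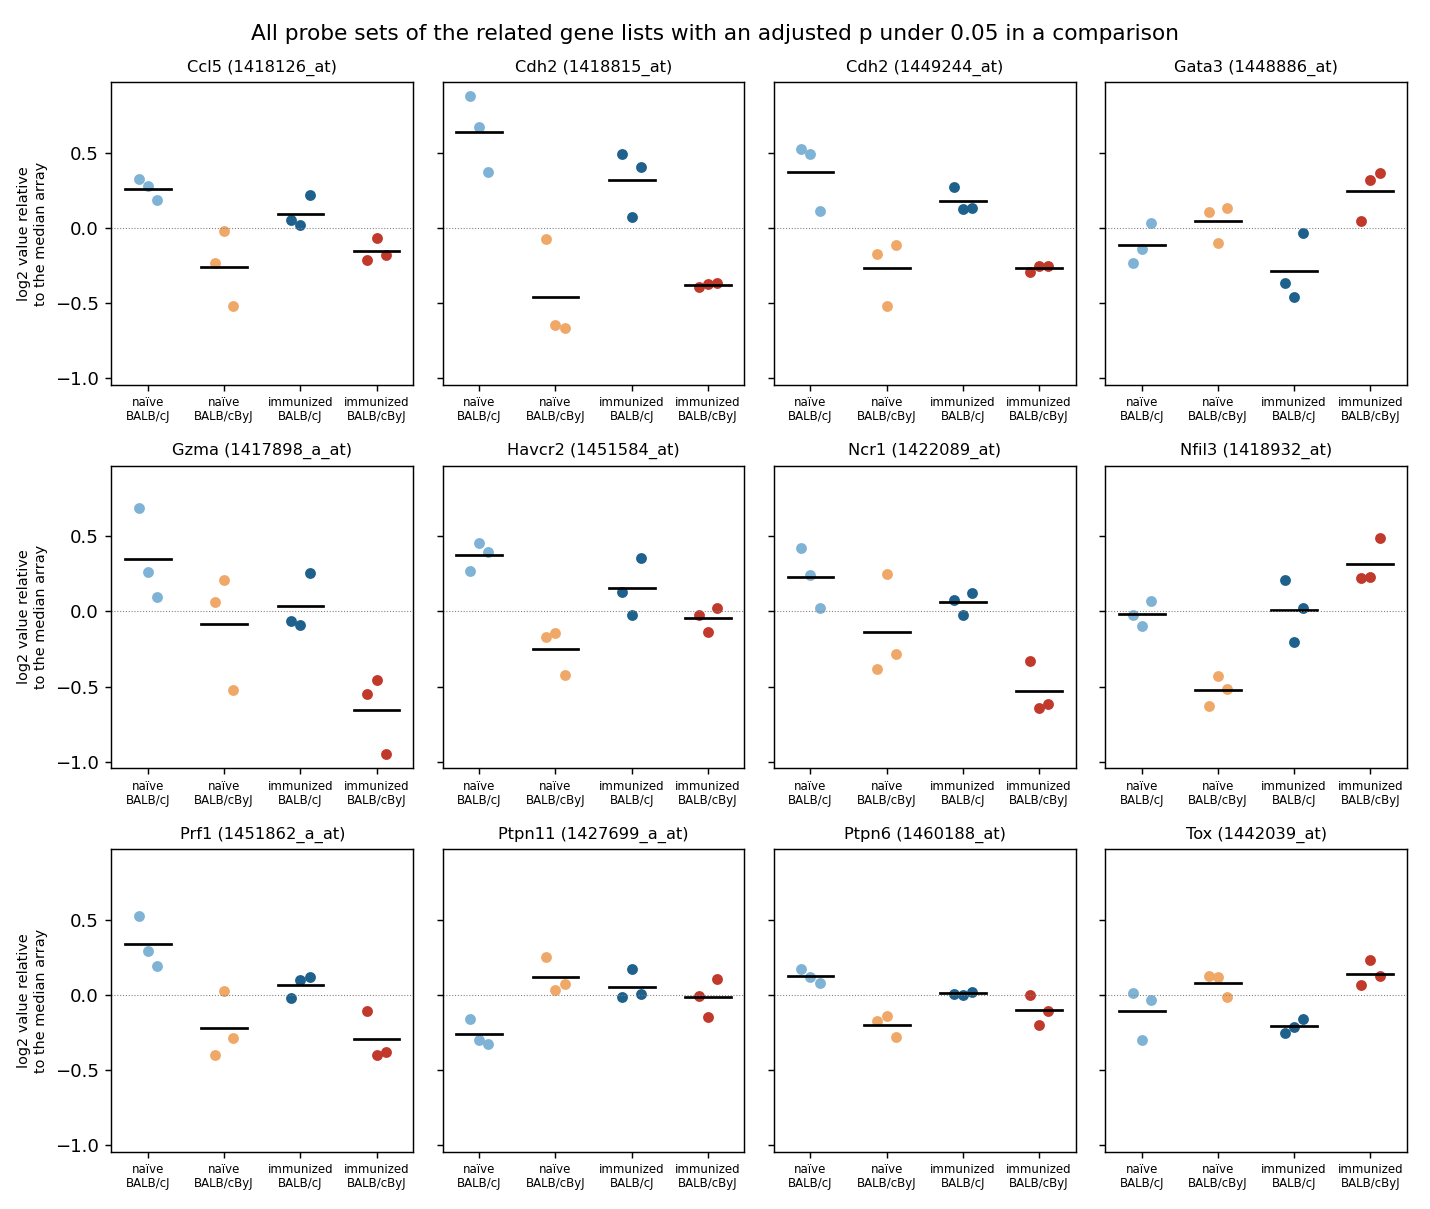
Log2 values relative to the median array of all 12 probe sets of the related gene lists with an adjusted p under 0.05 in at least 1 comparison. Each point is 1 array and each bar a group mean. Group means of Ncr1, Gzma and Prf1 are lowest in immunized BALB/cByJ, where those of Tox and Gata3 are highest. Other panels differ: means of Ccl5, Havcr2, Ptpn6 and Nfil3 are lowest in naïve BALB/cByJ, where that of Ptpn11 is highest. Between the colonies in immunized mice, no probe set shown was called.

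Genes of other cell types were read in the same way. In naïve mice 2.68% of all probe sets were called higher in BALB/cByJ and 1.71% lower. In naïve mice all 17 erythroid probe sets had higher means in BALB/cByJ (median difference 1.51, 13 called), as did all 19 pancreatic probe sets (median 0.98, 2 called). All 11 neutrophil probe sets had lower means there (median -0.52, 6 at an unadjusted p under 0.05, 0 called by limma), as did all 16 pigment cell probe sets (median -0.74, 12 at that level, 0 called by limma). Of 13 B cell probe sets, 12 had lower means (median -0.25, 8 at that level, 2 called). Of 20 plasmacytoid dendritic cell probe sets 1 was called higher in naïve mice, and of 25 heat shock probe sets 1 was called lower. In immunized mice 24 heat shock probe sets had lower means in BALB/cByJ (median -0.27). The late run of sample numbers consisted of the arrays highest in heat shock genes, BALB/cJ replicates 2 and 3 and BALB/cByJ replicate 3. The part of the run in that difference was not tested. After immunization, 3 of 11 neutrophil probe sets were called higher over both colonies, beside 0.0422% of all probe sets. The erythroid level was lowest in naïve BALB/cJ replicates 1 and 2, at -1.30 and -1.53. With that level as a covariate, no Klr member was called, and the difference over both states was -0.31 for Klra5 (limma adjusted p = 0.523), -0.33 for Klra9/Klra3 (limma adjusted p = 0.694) and -0.34 for Klrc1 1426182_a_at (limma adjusted p = 0.793). Leaving out the 4 arrays with the highest Dct kept naïve BALB/cJ replicate 3, itself raised in Dct, as the 1 array of its group. The differences over both states were then -0.29 for Klra5, -0.39 for Klra9/Klra3 and -0.38 for Klrc1 1426182_a_at. Since every naïve BALB/cJ array had raised pigment genes, these and the colony cannot be told apart in naïve mice. Leaving out the 4 arrays high in pancreatic or heat shock genes left 1 array of immunized BALB/cJ, so no call from that fit is given. These alternatives were chosen after seeing the data, and the part of the other cell types in the Klr differences was not tested further.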

How the data were processed

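Spleen RNA of 12 mice was hybridised to Affymetrix whole-genome mouse arrays, 1 per mouse. The authors summarised the probes in GeneSpring by RMA (quantile normalization, then median polish) and set every probe set relative to its median array, which gave the deposited log2 values. The sources used here name no version of RMA, and the log base is taken as that of the method. The values hold no signal level, so no filter on dim probe sets was possible. The number of arrays limits the precision.

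Of 45101 probe sets, 64 controls were left out. All 4 groups were fitted together with limma 3.58.1 in R 4.3.3 (a mean per group, eBayes), in 7 contrasts and a moderated F-test, with Benjamini-Hochberg adjustment over 45037 probe sets. The fit was tested on simulated data. The study's methods used a one-way analysis of variance, run here as an alternative. Other alternatives were array weights, quantile normalization, a fold threshold, probe set subsets, a replicate block and leaving out arrays. Named members were those called, those with the smallest p per subfamily and contrast, all probe sets of 6 chosen genes, and called or leading genes of each list. Members and lists were chosen with earlier results of these data known. Genes were named from the platform annotation, and promoter windows came from RefSeq (GRCm38.p6). They were compared with Biopython 1.88, and Python 3.11.15 with pandas 2.3.3 and matplotlib 3.10.9 drew the plots. Replicates are labelled as biological. P values measure the spread between these 12 arrays.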

Additional observations from a re-analysis of the deposited data

How the results depend on the processing

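The 26 single-member differences followed were those with an unadjusted p under 0.05 in the main fit, so their direction was likely to hold. Of their 638 values under the alternatives, 595 kept their direction and side of the threshold. A further 26 lost a call, 17 gained one and 0 changed direction. The lost calls were 7 of 26 values for Klra5 in naïve mice. Over both states they were 4 of 24 for Klra5, 3 of 22 for Klra9/Klra3 and 12 of 23 for Klrc1 1426182_a_at. These totals include the fits that left 1 array in a group. In naïve mice 1 member was called; array weights, the replicate block and probe sets of exactly 1 gene each gave 2, and a test against a fold of 1.2 and the one-way analysis of variance each gave 0. Leaving out 1 array gave 0 to 2. Of the alternatives chosen after seeing the data, the erythroid covariate gave 0. Leaving out the arrays high in pigment cell genes, or those high in pancreatic or heat shock genes, left 1 array in a group. No counts are given for these fits. In immunized mice 0 members were called, and quantile normalization and array weights each gave 1 (Klra9/Klra3), as did leaving out naïve BALB/cJ replicate 1 (range 0 to 1). Over both states 3 were called. Array weights gave 6, leaving out _s_at, _x_at and _a_at probe sets 1, the fold of 1.2 0 and the erythroid covariate 0. Leaving out naïve BALB/cByJ replicate 2 gave 6 and naïve BALB/cJ replicate 3 gave 5, the range being 2 to 6. The F-test called 2. Array weights gave 4, leaving out the suffixed probe sets 1, probe sets of 1 gene 1, the analysis of variance 0 and the erythroid covariate 0. Leaving out 1 array gave 0 to 2, with 0 without naïve BALB/cJ replicate 1 or 2 or immunized BALB/cByJ replicate 2 or 3. In the main fit 4.39% of all probe sets were called in naïve mice and 0.12% in immunized mice. Over both states it was 4.62%, and by the F-test 1.77%. The shares over all probe sets under each alternative are not given here. The changed counts can therefore not be read as particular to the Klr genes. The causes of the changed counts were not tested.

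Same-numbered arrays of different groups had correlated deviations of -0.289 to 0.368 (median 0.103, 9 of 18 pairs over 0.1), beside a median of -0.0451 and 9 of 36 pairs over 0.1 for other numbers. Of 12 arrays, 6 correlated best with their own number. Since not every pair was over 0.1 and the labels name no shared source, the numbers were not taken as a pairing. With the replicate block, Klrc1 1426182_a_at was also called in naïve mice (-0.83, limma adjusted p = 0.0437), and no other Klr count changed.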
